A study of Mus musculus with 16 samples.

Results

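The transcripts of 8 genes known from peripheral nerve, Schwann cells and melanocytes were followed through mouse cardiac tissue of 4 genotypes. The genes were Dct, Edn3, Stmn2, Gfra2, Ngfr, Sox10, S100b and Kcna1. They were picked by symbol from a count table of 36499 gene entries, of which 24625 held a count and 15255 passed the filter on low counts; all 8 passed. Several of the 8 were chosen because their counts were lower in the libraries lacking Clpp than in wild type, so their differences from wild type are given as descriptions, with no p and no count of calls. RNA came from wild-type mice, Fgf21 knockout (Fgf21 KO) mice, Clpp knockout (Clpp KO) mice and mice lacking both genes (double KO), with 4 libraries of each genotype and normal chow throughout. CLPP is the proteolytic subunit of a protease in the mitochondrial matrix, and FGF21 is a hormone that stressed tissues can secrete. Floxed alleles were deleted in the whole body by Cre recombinase under the β-actin promoter, so the loss was not limited to the heart or to nerve; the labels describe this cross for the Clpp KO and the double KO, and the making of the Fgf21 KO is not described in them. The labels give no age or sex, and do not say whether each library was a separate animal. The p-values below therefore set differences against the spread between libraries, which may be technical and not between animals. These are bulk libraries, in which fewer cells of a type and less RNA per cell cannot be told apart.

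The heart is supplied by sympathetic and parasympathetic axons and holds small ganglia, mostly near the atria, whose neurons and axons are wrapped by glia of neural crest origin. Neural crest cells also give rise to melanocytes, a few of which live in the valves, septum and atria of the mouse heart. SOX10 is the transcription factor shared by the glial and melanocyte lineages and, with MITF, drives melanocyte genes such as Dct. EDN3 is a secreted peptide that signals to neural crest cells through the receptor EDNRB.

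One promoter sequence is shown because Dct is a textbook target of SOX10 and MITF and gave the tightest pattern of the 8 genes. Sequences upstream of the start were found for Dct, Edn3, Ngfr and S100b, which is 4 of the 8, in RefSeq for GRCm38.p6. The Dct sequence covers the 250 bases before the start, at chr14:118052247-118052496 on the minus strand, written 5′ to 3′ with the start after the last base. Capitals mark the matches to ACAAAG and ACAATG, which are letters that SOX factors can bind, and to the E-box letters CATGTG, each on either strand.
Dct: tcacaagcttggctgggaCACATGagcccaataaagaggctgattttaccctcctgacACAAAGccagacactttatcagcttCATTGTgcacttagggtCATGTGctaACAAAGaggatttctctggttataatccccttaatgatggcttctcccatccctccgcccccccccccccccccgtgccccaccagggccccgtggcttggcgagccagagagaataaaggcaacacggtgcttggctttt
ACAAAG stood here at 2 positions, whose first bases lay 192 and 141 bases before the start, and ACAATG at 1, which lay 167 bases before it. CATGTG stood at 2 positions, 232 and 150 bases before the start, and no match overlapped another. Among 32841 promoters of the same length, 16.5% held ACAAAG, 10.7% held ACAATG and 12.3% held CATGTG. The E-box CACGTG, present in 6.02% of promoters, was not among the letters of the Dct window, and none of the 4 motifs was found in the windows of Edn3, Ngfr or S100b. Each match is a description of letters only.

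The libraries held between 36260545 and 51820727 counts. Clpp counts ran from 1435 to 2636 in wild type and Fgf21 KO and from 267 to 355 in the 2 Clpp-lacking groups, and Fgf21 was at 0 in all libraries of Fgf21 KO and double KO, where a count of 0 allows up to 3 counts by counting error alone. Mitochondrial mRNA took 25.5% to 39.4% of counts where Clpp was intact and 56.1% to 60.8% where it was lost. For this reason levels below are CPM (counts set to a common library total) scaled by TMM, a trimmed mean that sets most genes equal between libraries, unless library totals are named. Cardiomyocyte genes summed to between 22300 and 53400 CPM by library totals, as cardiac tissue should give, and lung and airway genes to between 0.154 and 1.57 CPM. Wild-type libraries 2 and 4 stood apart. Myl7, an atrial myosin light chain, was at 3160 and 1800 CPM there against 1.45 and 1.40 CPM in wild-type libraries 1 and 3, and Ucp1, a brown fat gene, was at 3.75 and 29.9 CPM against 0.0657 and 0.0206 CPM. Values of Myl7, Ucp1 and summed lists are by library totals throughout. On that scale the median log2 fold change of all genes from wild type was -0.793 in Clpp KO and -0.92 in double KO. Differences from wild type are given with and without libraries 2 and 4. Without them, wild type rests on libraries 1 and 3 alone, which were the closest pair of all and may not be separate animals.

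Edn3 (ENSMUSG00000027524, chr2:174760619-174784042, plus strand; all gene positions are from GENCODE M21 on GRCm38) is the only ligand among the 8. Its counts in libraries 1 to 4 were 91, 68, 99 and 241 in wild type, 94, 59, 33 and 31 in Fgf21 KO, 32, 18, 26 and 16 in Clpp KO, and 19, 14, 14 and 30 in double KO. Wild-type library 4 was the highest of all 16, and no library of either Clpp-lacking group reached the lowest wild-type level, 1.03 CPM. The highest level was 0.732 CPM in Clpp KO and 0.962 CPM in double KO. By library totals wild type averaged 3.14 ± 2.33 CPM, Fgf21 KO 1.22 ± 0.629, Clpp KO 0.479 ± 0.108 and double KO 0.419 ± 0.16 (SD, n = 4). The fitted difference from wild type was a log2 fold change of -1.99 ± 0.47 (SE) in Clpp KO and -2.01 ± 0.48 in double KO. Fgf21 KO lay between, at -1.19 ± 0.45, and its libraries overlapped wild type. Without wild-type libraries 2 and 4 the values were -1.51 in Clpp KO and -1.55 in double KO, the largest of the 8 genes in both comparisons.

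Dct (ENSMUSG00000022129, chr14:118012790-118052244, minus strand) encodes dopachrome tautomerase, an enzyme of melanin synthesis. Libraries 1 to 4 held 121, 282, 146 and 252 counts in wild type, 220, 179, 134 and 142 in Fgf21 KO, 52, 40, 49 and 34 in Clpp KO, and 87, 68, 72 and 67 in double KO. Scaled by TMM, the 4 Clpp KO libraries lay within 1.02 to 1.19 CPM and the 4 double KO libraries within 1.95 to 2.32 CPM, while Fgf21 KO ran from 2.52 to 3.91 CPM and wild type from 2.22 to 5.16 CPM. Clpp KO stood below every library of the other groups, and double KO stood below every Fgf21 KO library but overlapped wild type. On library totals wild type averaged 5.09 ± 2.64 CPM, Fgf21 KO 3.84 ± 0.836, Clpp KO 0.919 ± 0.0775 and double KO 1.60 ± 0.172 (SD, n = 4). Against wild type the log2 fold change was -1.66 ± 0.24 (SE) in Clpp KO and -0.71 ± 0.24 in double KO, and without wild-type libraries 2 and 4 it was -1.07 and -0.13. The span of Dct overlaps that of 4930435M08Rik on the opposite strand. Whether their exons overlap was not examined. Where they do, reads of the 2 genes may not be told apart, since counting by strand is not stated. Dct shares 2.8% of its 31-base stretches with other genes, the highest share of the 8.

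**Figure D1:**
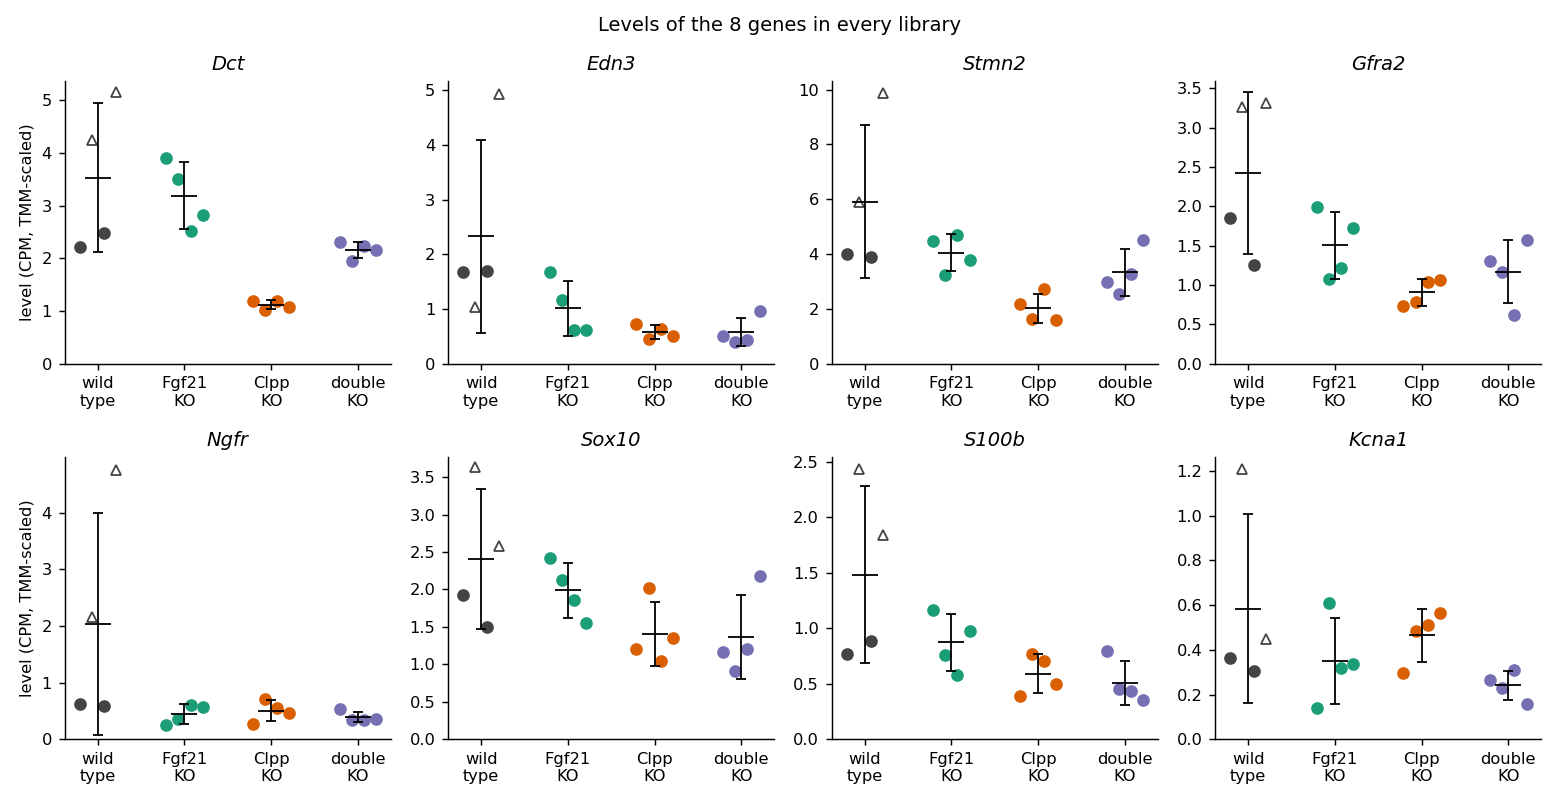
Level of each of the 8 genes in every library, in CPM scaled by TMM on an axis from 0, with the mean and SD of the 4 libraries of each genotype as a bar; open triangles are wild-type libraries 2 and 4. The 4 Clpp KO libraries of Dct sit between 1.02 and 1.19 CPM and the 4 double KO libraries between 1.95 and 2.32 CPM, while the wide wild-type spread of Ngfr comes from the 2 triangles at 2.16 and 4.75 CPM.

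Stmn2 (ENSMUSG00000027500, chr3:8509360-8561606, plus strand) encodes stathmin-2, a regulator of microtubules in growing axons. Counts were 218, 390, 229 and 483 in wild type, 252, 166, 250 and 190 in Fgf21 KO, 95, 64, 112 and 51 in Clpp KO, and 112, 89, 105 and 141 in double KO. Wild-type libraries 2 and 4 were the highest, at 5.88 and 9.89 CPM, and the lowest wild-type library, at 3.90 CPM, was still above all Clpp KO libraries, which ended at 2.72 CPM. Double KO, from 2.55 to 4.52 CPM, overlapped every other group. Scaled to library totals, wild type averaged 8.39 ± 4.33 CPM, Fgf21 KO 4.86 ± 0.762, Clpp KO 1.67 ± 0.414 and double KO 2.43 ± 0.433 (SD, n = 4). The log2 fold change from wild type was -1.54 ± 0.29 (SE) in Clpp KO and -0.83 ± 0.28 in double KO, and -0.95 and -0.25 without wild-type libraries 2 and 4.

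Gfra2 and Ngfr encode receptors for neurotrophic ligands. GFRA2 binds neurturin and acts with the kinase RET on parasympathetic neurons, and NGFR, also named p75, binds neurotrophins on neurons and Schwann cells. Gfra2 (ENSMUSG00000022103, chr14:70890120-70979838, plus strand) had counts of 101, 216, 74 and 162 in wild type, 112, 55, 65 and 87 in Fgf21 KO, 32, 31, 43 and 34 in Clpp KO, and 49, 41, 20 and 49 in double KO. Clpp KO was the only genotype whose libraries all lay below wild type, at 0.732 to 1.07 CPM, where the lowest wild-type library was at 1.26 CPM. On library totals wild type averaged 3.54 ± 2.04 CPM, Fgf21 KO 1.82 ± 0.589, Clpp KO 0.743 ± 0.103 and double KO 0.868 ± 0.297 (SD, n = 4). The log2 fold change of Gfra2 from wild type was -1.41 ± 0.33 (SE) in Clpp KO and -1.05 ± 0.33 in double KO, or -0.77 and -0.41 without wild-type libraries 2 and 4.

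Ngfr (ENSMUSG00000000120, chr11:95568818-95587735, minus strand) had counts of 34, 143, 35 and 232 in wild type, 14, 18, 32 and 29 in Fgf21 KO, 12, 28, 23 and 15 in Clpp KO, and 20, 12, 11 and 11 in double KO. Wild-type libraries 2 and 4 stood far above the other 14, where counts ran from 11 to 35. By library totals wild type averaged 2.95 ± 2.75 CPM, Fgf21 KO 0.532 ± 0.205, Clpp KO 0.417 ± 0.164 and double KO 0.294 ± 0.0894 (SD, n = 4). The log2 fold changes from wild type, -2.0 ± 0.57 (SE) in Clpp KO, -2.35 ± 0.58 in double KO and -2.18 ± 0.56 in Fgf21 KO, were alike in size in the 3 knockouts, which share the wild-type libraries. With wild-type libraries 2 and 4 left out they were -0.27 in Clpp KO and -0.63 in double KO. All 4 double KO libraries of Ngfr, up to 0.533 CPM, lay below the lowest wild-type library, at 0.596 CPM.

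Sox10 and S100b are glial genes, the first a transcription factor and the second a calcium-binding protein abundant in Schwann cells. Sox10 (ENSMUSG00000033006, chr15:79154908-79165240, minus strand) had counts of 105, 241, 88 and 126 in wild type, 136, 108, 99 and 78 in Fgf21 KO, 53, 79, 43 and 43 in Clpp KO, and 44, 32, 39 and 68 in double KO. All 4 genotypes overlapped, with wild type from 1.5 to 3.63 CPM and Clpp KO from 1.04 to 2.02 CPM. Scaled to library totals, wild type averaged 3.56 ± 2.17 CPM, Fgf21 KO 2.38 ± 0.456, Clpp KO 1.17 ± 0.409 and double KO 0.994 ± 0.327 (SD, n = 4). Sox10 differed from wild type by a log2 fold change of -0.78 ± 0.31 (SE) in Clpp KO and -0.82 ± 0.31 in double KO, and by -0.28 and -0.33 without wild-type libraries 2 and 4.

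S100b (ENSMUSG00000033208, chr10:76253853-76261159, plus strand) had counts of 42, 162, 52 and 90 in wild type, 66, 39, 31 and 49 in Fgf21 KO, 17, 30, 29 and 16 in Clpp KO, and 30, 16, 14 and 11 in double KO. Clpp KO and wild type were parted by a narrow gap, from 0.765 CPM in the highest Clpp KO library to 0.769 CPM in the lowest wild-type library. Library totals gave wild type a mean of 2.23 ± 1.65 CPM, Fgf21 KO 1.06 ± 0.35, Clpp KO 0.487 ± 0.156 and double KO 0.386 ± 0.176 (SD, n = 4). The log2 fold change from wild type was -1.33 ± 0.39 (SE) in Clpp KO and -1.53 ± 0.39 in double KO, and -0.48 and -0.69 without wild-type libraries 2 and 4. The span of S100b overlaps that of Dip2a on the opposite strand, so the limit given for Dct holds here too.

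Kcna1 (ENSMUSG00000047976, chr6:126640397-126646384, minus strand) encodes a shaker potassium channel that sits beside the nodes of myelinated axons. It had the lowest counts of the 8, at 20, 80, 18 and 22 in wild type, 8, 31, 17 and 17 in Fgf21 KO, 13, 19, 21 and 18 in Clpp KO, and 10, 8, 10 and 5 in double KO. Wild-type library 2 alone stood out, and the other 3 wild-type libraries lay within the range of Clpp KO in CPM. Library totals gave wild type a mean of 0.905 ± 0.873 CPM, Fgf21 KO 0.419 ± 0.223, Clpp KO 0.38 ± 0.0861 and double KO 0.18 ± 0.0497 (SD, n = 4). The log2 fold change in Clpp KO, -0.34 ± 0.46 (SE), turned to 0.46 without wild-type libraries 2 and 4 and to 0.32 without wild-type library 2. In double KO it was -1.27 ± 0.49, and -0.47 without wild-type libraries 2 and 4.

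Per kilobase of exon, 7 of the 8 transcripts lay close together in wild type and Kcna1 lay lower. Stmn2 led, at a mean level of 1.06 ± 0.5 CPM per kilobase (SD, n = 4), followed by S100b at 1.00 ± 0.539, Sox10 at 0.79 ± 0.305, Gfra2 at 0.684 ± 0.291, Dct at 0.599 ± 0.24, Ngfr at 0.589 ± 0.567 and Edn3 at 0.566 ± 0.429. Neighbours among these 7 differed by less than their spread. Kcna1 was last, at 0.122 ± 0.0879 CPM per kilobase. In Clpp KO the order of the mean levels was Sox10 at 0.461, S100b at 0.398, Stmn2 at 0.363, Gfra2 at 0.257, Dct at 0.189, Ngfr at 0.146, Edn3 at 0.141 and Kcna1 at 0.0971 CPM per kilobase.

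Across the 8 genes the median log2 fold change against wild type was -1.48 in Clpp KO and -1.16 in double KO, where the medians of all genes tested were -0.04 and -0.01. The medians of the 8 without wild-type libraries 2 and 4 were -0.63 and -0.44. Libraries did not overlap for 5 of the 8 in Clpp KO, all lower, against 5.93% of all genes lower without overlap, and for 2 of the 8 (Edn3 and Ngfr) in double KO, against 4.48%. Nothing is read from these counts, since the genes were chosen on the same contrasts.

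**Figure D2:**
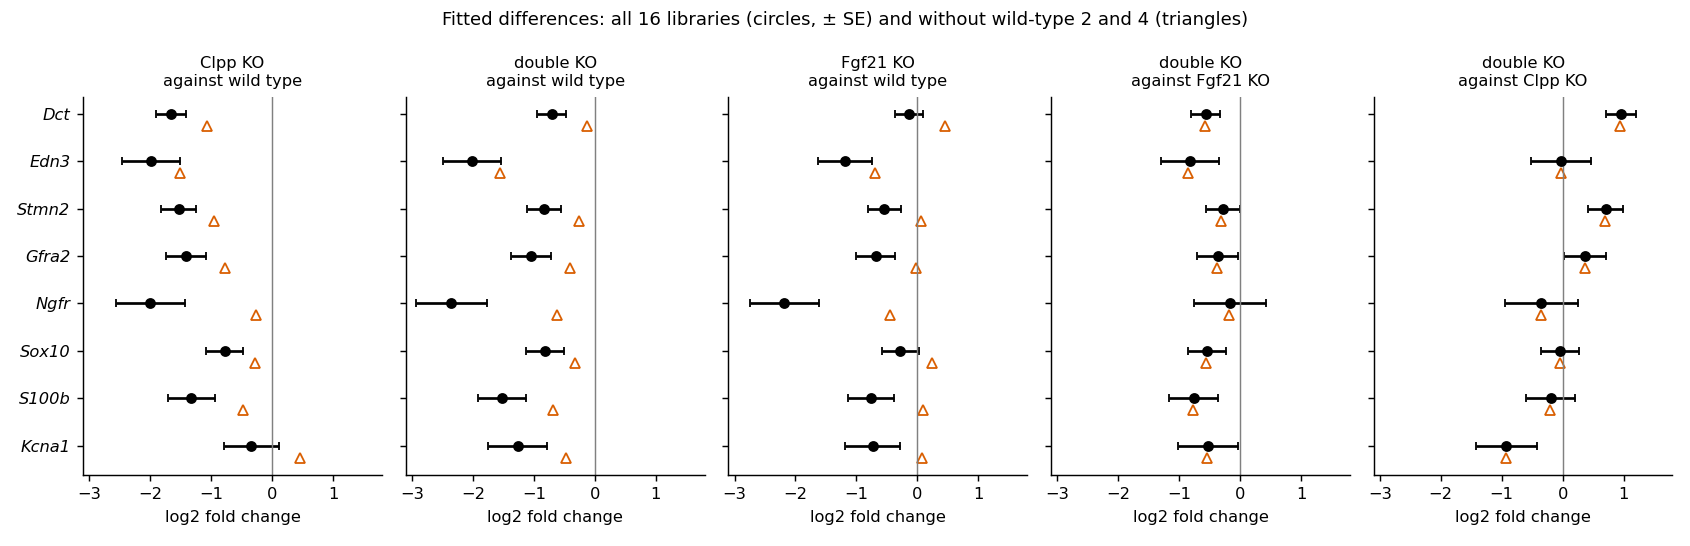
Fitted log2 fold change of each of the 8 genes in 5 comparisons, as black circles with standard errors for all 16 libraries and as open triangles without wild-type libraries 2 and 4. In the 3 comparisons with wild type the triangles lie nearer to 0 than the circles or on its other side, for Ngfr at -0.27 against -2.0 in Clpp KO, while in the 2 comparisons without wild type they lie on the circles.

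Double KO against Clpp KO asks what Fgf21 loss adds where Clpp is already gone. The genes were not chosen on the difference between these 2 groups, but both groups' libraries took part in the choice. The p-values of the 8 genes in this comparison are not free of that choice, and nothing is read from them. Dct had 1.93-fold higher levels in double KO, with all 4 libraries above all 4 of Clpp KO, a log2 fold change of 0.95 ± 0.25 (SE). The unadjusted p was 0.00137, and edgeR's quasi-likelihood test with Benjamini-Hochberg adjustment over all 15255 genes gave an adjusted p of 0.614, so Dct was not called; a gene is called when its adjusted p is below 0.05. Across the 25 alternatives its log2 fold change stayed positive, from 0.80 with library totals to 1.20 with an atrial score in the model, and its adjusted p ran from 0.0392 to 1. The value of 0.0392, the only one below the threshold, came without wild-type libraries 2 and 4, where the log2 fold change was 0.94; the cause was not tested. It was the only one of the 8 whose libraries did not overlap between these genotypes, where 3.11% of all genes were higher and 2.67% lower without overlap.

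Dct and Myl7 stood as follows in these 2 genotypes. Among the libraries with Myl7 under 3 CPM, Dct was at 1.07 CPM in Clpp KO library 4 and at 1.95, 2.23 and 2.15 CPM in double KO libraries 2, 3 and 4. Among those with more Myl7, it was at 1.19, 1.02 and 1.19 CPM in Clpp KO libraries 1, 2 and 3, where Myl7 was at 50, 434 and 129 CPM, and at 2.32 CPM in double KO library 1, where Myl7 was at 197 CPM. Over all 16 libraries the Pearson correlation of Dct with the atrial score was 0.206, within genotypes it was 0.619, and without wild-type libraries 2 and 4 it was -0.159; these are descriptions, and the part of atrial tissue in the Dct levels was not tested.

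The libraries of the other 7 genes overlapped between double KO and Clpp KO. Stmn2 had a log2 fold change of 0.71 ± 0.29 (SE), with an unadjusted p of 0.0259 and an edgeR adjusted p of 0.994, and its double KO libraries began at 2.55 CPM where those of Clpp KO ended at 2.72 CPM. Gfra2 was at 0.36 ± 0.34, Edn3 at -0.02 ± 0.49, Sox10 at -0.04 ± 0.31, S100b at -0.20 ± 0.40, Ngfr at -0.35 ± 0.60 and Kcna1 at -0.93 ± 0.50 on the log2 scale. None of the 8 was called by edgeR's quasi-likelihood test, 2 had an unadjusted p below 0.05 (Dct and Stmn2), and DESeq2 called none. Of all 15255 genes, edgeR called 0.059%, 542 had an unadjusted p below 0.05, and DESeq2 called 18 higher and 17 lower. The median of the 8 was -0.03, where that of all genes was 0.01.

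Fgf21 loss on its own, with Clpp intact, gave log2 fold changes from wild type between -2.18 for Ngfr and -0.14 for Dct, with a median of -0.71. Without wild-type libraries 2 and 4 the median was 0.06, and Dct, Stmn2, Sox10, S100b and Kcna1 had positive values of 0.45, 0.05, 0.23, 0.09 and 0.07, while Edn3, Ngfr and Gfra2 were at -0.70, -0.44 and -0.03. Each of the 8 overlapped wild type, where 1.57% of all genes were lower without overlap.

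Double KO against Fgf21 KO sets Clpp loss on a background without Fgf21 and does not use the wild-type libraries, though the double KO libraries took part in the choice of the genes. The log2 fold changes were -0.82 ± 0.47 (SE) for Edn3, -0.76 ± 0.40 for S100b, -0.56 ± 0.24 for Dct, -0.54 ± 0.31 for Sox10, -0.53 ± 0.50 for Kcna1, -0.37 ± 0.33 for Gfra2, -0.29 ± 0.28 for Stmn2 and -0.17 ± 0.59 for Ngfr. All 8 were below 0, with a median of -0.54. Of all 15255 genes, 7816 were below 0, with a median of -0.006. Nothing is read from these signs, since the double KO libraries took part in the choice. Dct was the only one of the 8 without overlap, at 1.95 to 2.32 CPM in double KO against 2.52 to 3.91 CPM in Fgf21 KO, where 1.92% of all genes were lower without overlap.

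The interaction (double KO minus Clpp KO, less Fgf21 KO minus wild type) was positive for 7 of the 8 genes and was largest for Ngfr, at 1.83 ± 0.81 (SE) on the log2 scale. It was 1.25 ± 0.40 for Stmn2 and 1.09 ± 0.34 for Dct. Left without wild-type libraries 2 and 4, these were 0.08 for Ngfr, 0.64 for Stmn2 and 0.49 for Dct. The median of the 8 was 1.07 with those libraries and 0.24 without them, where the medians of all genes were 0.02 and -0.01. Of all 15255 genes, 8100 were positive with all libraries in the model. The genes were chosen on wild-type, Clpp KO and double KO levels, which all enter this contrast, so nothing is read from these signs. No gene of the 15255 was called by edgeR (0%), 299 had an unadjusted p below 0.05, and DESeq2 called 3.

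The names of the cell types were then set beside genes that define them. Those named here were picked after their values were seen. Mlana, a melanosome protein, had counts of 4, 779, 3 and 305 in wild type, 4, 119, 42 and 149 in Fgf21 KO, 40, 198, 85 and 3 in Clpp KO, and 56, 1, 3 and 2 in double KO. The 7 libraries with Myl7 above 100 CPM held 56 to 779 counts of Mlana, and the other 9 held 1 to 42. Tyrp1, the enzyme next to Dct in the pathway, had counts of 57 and 27 in wild-type libraries 2 and 4 and of 0 in libraries 1 and 3. Dct stood at 121 and 146 counts in those same libraries 1 and 3, and at 67 to 72 in the 3 double KO libraries with 1 to 3 counts of Mlana. Mlana had log2 fold changes from wild type of -1.15 ± 1.43 (SE) in Clpp KO and -3.38 ± 1.63 in double KO. Pmel, which builds the fibrils of melanosomes, was at -1.36 ± 0.42 and -1.03 ± 0.41. Both had the same sign as Dct, but the wild-type counts of Mlana lay almost all in libraries 2 and 4. The other tested genes of the melanocyte list were mixed. In Clpp KO Slc24a5 was at -0.36, while Mitf, Kit and Ednrb were at 0.12, 0.16 and 0.28. In double KO Slc24a5 and Kit were at -0.62 and -0.32, and Mitf and Ednrb at 0.19 and 0.02. The summed level of the melanocyte list, by library totals, ran from 45.6 to 106 CPM in wild type, 45.1 to 63.0 in Fgf21 KO, 33.1 to 42.2 in Clpp KO and 25.8 to 34.8 in double KO, and was mostly Mitf and Ednrb, which other cardiac cells also express.

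Of the 25 genes of the neuron list outside the 8, 6 passed the filter, which asks for counts in several libraries, so genes present mainly in wild-type libraries 2 and 4 tend to fail it. The 6 were Phox2a, Dbh, Uchl1, Prph, Tubb3 and Ret. Dbh, which makes noradrenaline, had 80 to 401 counts in the groups with Clpp and 6 to 110 in those without it. Ret, the kinase that GFRA2 acts with, had 67 to 225 and 38 to 109 counts in the same groups, and Uchl1, a neuronal ubiquitin hydrolase, had 289 to 1122 and 215 to 377. These counts are not scaled, and the groups with Clpp include wild-type libraries 2 and 4. The log2 fold changes in Clpp KO against wild type were -1.15 ± 0.54 (SE) for Dbh, -0.56 ± 0.33 for Ret and -0.39 ± 0.36 for Uchl1. Their edgeR adjusted p-values were 0.233, 0.327 and 0.537, so none was called. Of the 19 genes of this list under the filter, 18 stood above all other 14 libraries in both wild-type libraries 2 and 4. Snap25, a synaptic vesicle fusion protein, had 71 and 213 counts there and 0 to 4 in the other 14. Npy, a peptide of sympathetic neurons, had 46 and 152 counts against 0 to 7. Chat, the enzyme that makes acetylcholine, had 8 and 15 counts against 0 in all other 14, and Th, the first enzyme of noradrenaline synthesis, had 32 and 52 against 0 to 2. In those 14 libraries Stmn2 held 51 to 252 counts and Gfra2 held 20 to 112. The neuron list summed to 113 CPM in wild-type library 4 and 69.9 CPM in library 2, to 21.1 and 21.7 CPM in wild-type libraries 1 and 3, and to between 8.97 and 31 CPM in the 3 knockout groups.

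**Figure D3:**
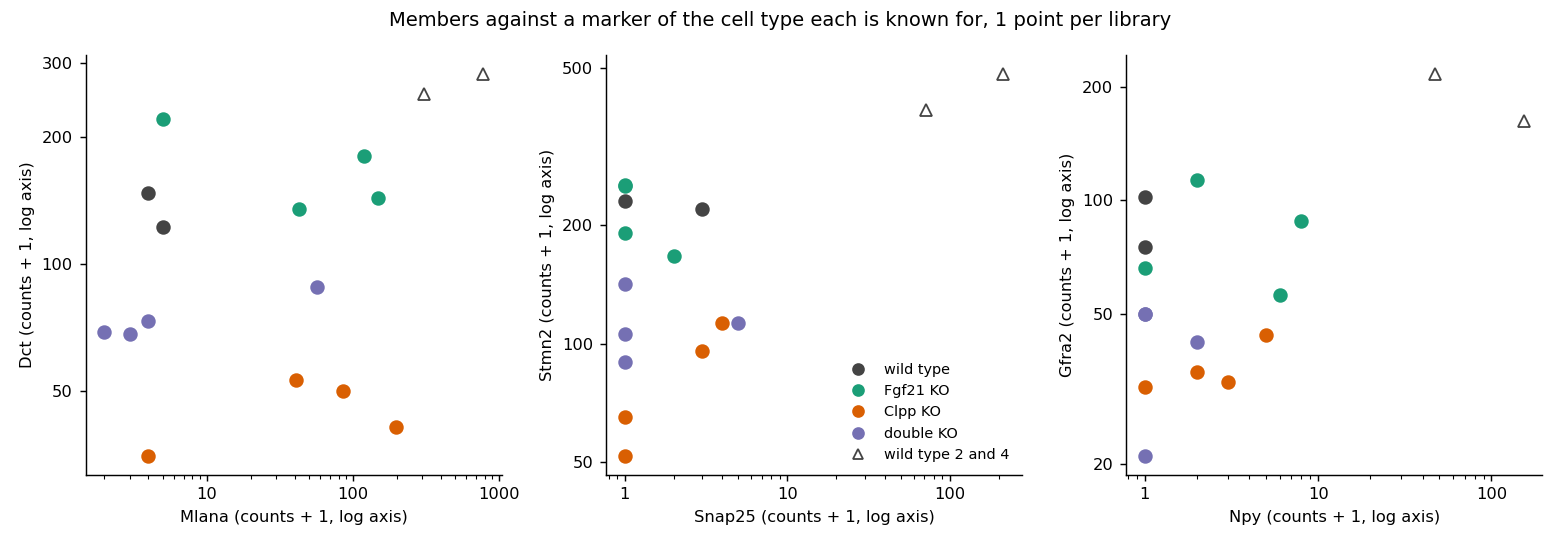
Counts plus 1 on log axes of Dct against Mlana, Stmn2 against Snap25 and Gfra2 against Npy, with 1 point for each of the 16 libraries, coloured by genotype; open triangles are wild-type libraries 2 and 4. Dct and Stmn2 are present in every library, with at least 34 and 51 counts, also where Mlana and Snap25 are at or near 0.

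Summed levels of genes of other cardiac cell types, by library totals, follow for wild type, Fgf21 KO, Clpp KO and double KO in turn. The 11 atrial genes summed to 156 to 19000, 494 to 3750, 184 to 3190 and 165 to 1200 CPM, and 9 fat genes to 17 to 306, 20.9 to 36.6, 11.7 to 25.2 and 12.3 to 16.6 CPM. The 12 conduction system genes summed to 109 to 250, 103 to 139, 58.4 to 93.2 and 39.7 to 80.8 CPM. For 8 valve and cartilage genes the sums were 27.6 to 248, 19.4 to 80, 19.3 to 43.4 and 10.2 to 32.4 CPM, and for 8 fibroblast genes 733 to 2350, 582 to 892, 402 to 916 and 276 to 539 CPM. The 6 ventricular genes summed to 10600 to 13100, 10600 to 18400, 6630 to 8760 and 7700 to 9000 CPM. In all these lists but the ventricular one, wild-type libraries 2 and 4 held the 2 highest wild-type sums. The median log2 fold change in Clpp KO against wild type was -0.66 for the atrial list (11 of 11 genes tested below 0), -3.37 for fat (7 of 7), -0.64 for conduction (10 of 11), -0.96 for valve (6 of 8), -0.22 for fibroblasts (8 of 8) and 0.06 for ventricle (3 of 6). With wild-type libraries 2 and 4 left out the medians were 3.72, 2.51, 0.28, 0.39, 0.19 and -0.23. The part of these tissues and of neuronal transcripts in the levels of the 8 genes was not tested.

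The related genes were taken from 7 lists of Schwann cell, neuron, melanocyte, endothelin, neurotrophin, shaker channel and neural crest genes. They hold 101 genes outside the 8, of which 62 passed the filter. In Clpp KO against wild type edgeR's quasi-likelihood test called 1 of the 62 lower and 0 higher, where 0.551% of all genes were called lower. Of the 62, 21 had an unadjusted p below 0.05, of which 19 were lower, and DESeq2 called 4 lower. Of all 15255 genes, 3253 had such a p, of which 1847 were lower, and DESeq2 called 402 lower. The median log2 fold change of the 62 was -0.48, and 0.05 without wild-type libraries 2 and 4, where that of all genes was -0.001. By list, the median of the genes tested was -1.66 for 6 neuronal genes, -0.69 for 17 Schwann cell and glial genes, -0.47 for 18 neurotrophic ligands and receptors, -0.43 for 8 shaker channel genes, -0.16 for 7 neural crest factors, -0.12 for 6 melanocyte genes and 0.04 for 5 genes of the endothelin pathway. Without wild-type libraries 2 and 4 these medians were -0.26, 0.19, 0.07, 0.05, 0.29, 0.01 and -0.04 in the same order.

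The called gene was L1cam, an adhesion protein of axons and Schwann cells that do not form myelin. Libraries 1 to 4 held 183, 386, 209 and 270 counts in wild type, 136, 127, 170 and 154 in Fgf21 KO, 81, 105, 79 and 72 in Clpp KO, and 150, 99, 73 and 71 in double KO. L1cam fell by 1.07 ± 0.23 (SE) on the log2 scale in Clpp KO, with an adjusted p of 0.024 by edgeR's quasi-likelihood test, and the adjusted p ran from 0.000155 to 0.453 over 25 alternatives. The call was lost without wild-type libraries 2 and 4, where the log2 fold change was -0.66 (adjusted p = 0.253, edgeR). It was also lost when wild-type library 2 or 4 or Clpp KO library 1, 3 or 4 was left out alone, with edgeR adjusted p-values of 0.0753, 0.0713, 0.0974, 0.0912 and 0.0672.

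In the other 6 lists no gene was called in any comparison, and the genes with the smallest p in Clpp KO against wild type were as follows. Prph, a neuronal intermediate filament, had 80 and 266 counts in wild-type libraries 2 and 4 and 1 to 12 in the other 14, with a log2 fold change of -3.78 ± 1.06 (SE) and an edgeR adjusted p of 0.0831. Tubb3, a neuronal tubulin, was at -2.17 ± 0.65. Without wild-type libraries 2 and 4 these were -0.005 and -0.29. Pmel was at -1.36 ± 0.42, or -0.40 without those libraries. Ednrb, the receptor of the Edn3 peptide, had 606 to 1261 counts in wild type and 546 to 739 in Clpp KO and a log2 fold change of 0.28 ± 0.21, on the other side of 0 from its ligand. Ece1, the protease that releases active endothelins, was at -0.49 ± 0.16 with an edgeR adjusted p of 0.124. Among receptors, Ntrk3 was at -1.72 ± 0.62, turning to 0.28 without wild-type libraries 2 and 4, and Erbb3, the neuregulin receptor of Schwann cells, was at 0.29 ± 0.10. The channel genes Kcna6 and Kcnab1 were at -0.63 ± 0.28 and -0.62 ± 0.31, and the neural crest factors Snai2 and Foxd3 at -0.57 ± 0.24 and -0.51 ± 0.43; Foxd3 stands on 2 entries of the table with identical counts. Scaled to library totals alone, the values of Ednrb and Erbb3 turned to -0.53 and -0.47, with the median of all genes at -0.79.

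**Figure D4:**
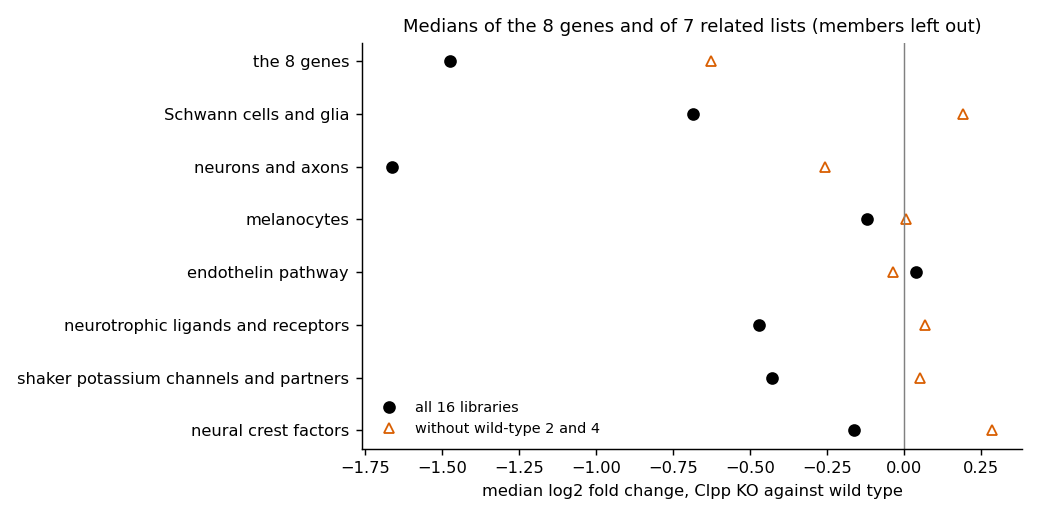
Median log2 fold change in Clpp KO against wild type of the 8 genes and of the tested genes of 7 related lists, from which the 8 were left out; filled circles use all 16 libraries and open triangles leave out wild-type libraries 2 and 4. The median of the neuron list lies at -1.66 with all libraries and at -0.26 without those 2, while that of the 8 genes lies at -1.48 and -0.63.

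In the other comparisons edgeR called none of the 62 related genes. In double KO against wild type, where 0.479% of all genes were called lower, 22 had an unadjusted p below 0.05. DESeq2 called 6 of the 62 lower there, and their median was -0.60. Of all 15255 genes, 3473 had such a p and DESeq2 called 551 lower. In Fgf21 KO against wild type, where 0.0459% of all genes were called, 10 had such a p, beside 1399 of all genes, and DESeq2 called none of the 62. Double KO against Fgf21 KO, where 0.0656% of all genes were called lower, gave 0 and double KO against Clpp KO gave 1 at an unadjusted p below 0.05, with medians of -0.12 and -0.06 and no call by DESeq2. Of all genes, 1081 and 542 had such a p in these 2 comparisons. In the interaction 6 had such a p, beside 299 of all genes, and DESeq2 called none of the 62.

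The 8 genes varied together only in part across libraries. Over the 28 pairs of genes, the Pearson correlation of log2 CPM over 16 libraries had a median of 0.62, with 0.001 as the lowest and 0.881 as the highest. Within genotypes the median was 0.44, and without wild-type libraries 2 and 4 it was 0.39. The libraries share their tissue makeup and scaling, so these correlations are descriptions and carry no p. Outside the 8, the genes whose log2 CPM was most like the mean of the 8 over the 16 libraries were Nsg1 (r = 0.967), Ptms (r = 0.966), Hsd3b7 (r = 0.958), Reep2 (r = 0.955) and Arhgef25 (r = 0.953). Over 14 libraries, without wild-type 2 and 4, the same 5 correlations were 0.888, 0.848, 0.833, 0.875 and 0.905. Mean CPM by library totals follow for wild type, Fgf21 KO, Clpp KO and double KO in turn. Nsg1, a neuronal endosome protein, was at 6.93, 3.82, 2 and 1.88, and Ptms at 131, 80.1, 39.9 and 36. Hsd3b7 was at 23.7, 13.7, 6.92 and 6.45, Reep2 at 1.71, 0.674, 0.323 and 0.321, and Arhgef25 at 34.1, 19.8, 10.8 and 9.87.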

How the data were processed

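RNA of mouse cardiac tissue was sequenced after a stranded mRNA preparation, in 16 libraries of 4 genotypes. The authors deposited 1 table of gene counts with a column for each library. Per the submitters' processing notes, fastp 0.21.0 and kallisto 0.46.1 were used with build GRCm38.p6, and also edgeR 3.32.1, DESeq2 1.30.1 and R 4.0.3. kallisto gives fractional estimates, the deposited counts are whole, and no source used here gives the step between. Reads shared by similar transcripts are divided between them, and counting by strand is not stated. The table also holds 440 symbols on more than 1 entry.

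Counts were fitted as deposited in R 4.3.3 with edgeR 4.0.16: filterByExpr (count minimum 10, total minimum 15) left 15255 genes, TMM factors ran from 0.674 to 1.83, and 1 quasi-likelihood model with robust dispersion covered all 16 libraries (12 residual degrees of freedom, common biological coefficient of variation 0.249). Tests were two-sided, with Benjamini-Hochberg adjustment over all genes tested. The steps, but for the interaction, were also run on simulated counts. These held no difference in tissue makeup between libraries, and nothing is read from them here. Levels were set on library totals in the design and are also given scaled by TMM. Errors are SE for log2 fold changes and SD for levels. Wild-type libraries 1 and 3 were the closest pair, at 1.94 times the Poisson spread. The other wild-type pairs stood at 29.5 to 54.6 times, and pairs within the other groups at 2.68 to 25 times. Whether libraries 1 and 3 come from separate animals is not stated, and these values cannot settle it. They were kept apart, and summing them was an alternative.

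The 8 genes, the 7 related lists, 8 lists of other cardiac cell types and the alternatives were chosen with earlier results of these data known. Named by rule were the 8 genes, up to 4 called genes per list and comparison or, failing any, the 2 with the smallest p in Clpp KO against wild type, and the 5 genes most correlated with the mean of the 8. Lists of other cell types are given only as summed levels and medians. Alternatives were DESeq2 1.42.0 size factors and test, library totals, no filter, a replicate block, leaving out libraries, and an atrial score (mean log2 CPM of Myl7, Nppa, Sln, Myl4, Bmp10 and Dkk3) in the model. Leaving out the 4 libraries above 1 CPM of Ucp1 was added after seeing the data. Coordinates and exon lengths are from GENCODE M21, and promoters from RefSeq.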

Additional observations from a re-analysis of the deposited data

Results flagged for a closer look

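In double KO, Ngfr in library 1 lay far from the other 3 libraries, with 20 counts (0.533 CPM scaled by TMM) against 12, 11 and 11 counts (0.343, 0.341 and 0.353 CPM). Its gap to the nearest library was 0.929 of the whole range of the group, above Dixon's critical value for 4 libraries. It was the only such value among 32 groups examined, the 8 genes in each of 4 genotypes. Chance gives about 1 in 20, so 1 among 32 is no more than chance gives. That library was also the only one of the 4 with Myl7 above 100 CPM, at 197 CPM; the part of atrial tissue in the Ngfr value was not tested.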

How the results depend on the processing

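The median of all genes shifted to -0.793 in Clpp KO, -0.92 in double KO and -0.226 in Fgf21 KO against wild type (log2) when libraries were scaled by totals alone, and the calls came to 11933, 13124 and 10858 genes for Clpp KO and double KO against wild type and double KO against Fgf21 KO, from 249, 233 and 136. Of these calls 0.796%, 0.648% and 0.884% were higher, against 66.3%, 68.7% and 92.6% with TMM. The DESeq2 test called 841, 966, 34, 209, 35 and 3 genes for Clpp KO, double KO and Fgf21 KO (each against wild type), for double KO against Fgf21 KO and against Clpp KO, and for the interaction, where edgeR called 249, 233, 7, 136, 9 and 0. With the atrial score the counts were 1118 in Clpp KO and 13 in Fgf21 KO against wild type and 1 in the interaction. Without wild-type libraries 2 and 4 they were 159, 148, 241 and 15 in Clpp KO and double KO against wild type and double KO against Fgf21 KO and against Clpp KO; with wild-type libraries 1 and 3 summed, 562 and 821 in the first 2, and without the 4 libraries above 1 CPM of Ucp1, 107 and 129. Leaving out 1 library gave 114 (without Clpp KO 1) to 949 (without wild-type 3) in Clpp KO, 129 (without double KO 2) to 1116 (without wild-type 3) in double KO and 5 to 8 in Fgf21 KO against wild type, 94 to 160 in double KO against Fgf21 KO and 6 to 10 against Clpp KO. The cause of these shifts was not tested.

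The replicate block gave 146 genes in Clpp KO against wild type and the adjusted p of L1cam by edgeR became 0.0551. The numbers share no more than a label: same-numbered libraries correlated at -0.228 to 0.364, and 3 of 16 correlated best with their own number, so nothing was paired.

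Log2 fold changes of the 8 genes changed sign as follows. In Fgf21 KO against wild type, Dct, Stmn2, Sox10, S100b and Kcna1 were at 0.454, 0.054, 0.231, 0.093 and 0.069 without wild-type libraries 2 and 4 and at 0.513, 0.091, 0.337, 0.044 and 0.089 without the 4 Ucp1 libraries. In Clpp KO against wild type Kcna1 was at 0.459 and 0.628 in these 2 settings. Ntrk3, Kcnab1 and Foxd3 turned to 0.275, 0.041 and 0.623 in the first, and Kcna6, Kcnab1 and Foxd3 to 0.029, 0.043 and 0.601 in the second. In the interaction Sox10 and S100b were at -0.282 and -0.298, then -0.456 and -0.411. With the atrial score, double KO against Clpp KO gave 0.066 for Edn3, 0.464 for Ngfr, 0.163 for Sox10 and 0.262 for S100b, double KO against Fgf21 KO gave 0.596 for Ngfr, and the interaction of Kcna1 was 0.23 (0.034 by library totals). Edn3 in double KO against Clpp KO was at 0.095 without the 4 Ucp1 libraries. By library totals Ednrb and Erbb3 were at -0.532 and -0.467 in Clpp KO against wild type. Leave-one-out ranges that crossed 0 were, against wild type, -0.308 to 0.096 for Dct and -0.446 to 0.014 for Sox10 in Fgf21 KO and -0.548 to 0.316 for Kcna1 in Clpp KO. In double KO against Clpp KO they were -0.379 to 0.116 for Edn3 and -0.352 to 0.186 for Sox10, and in the interaction -0.078 to 0.461 for Sox10 and -0.858 to 0.202 for Kcna1. The differences of Dct, Edn3, Stmn2, Gfra2, Ngfr, Sox10 and S100b in Clpp KO and of all 8 in double KO against wild type were negative under every alternative run. Nothing is read from this, since the genes were chosen on these contrasts and the alternatives reuse the same libraries. Counts went as low as 5 for Kcna1 and 11 for Ngfr and S100b, where counting error is a large share of the count.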
